A study of Mus musculus with 12 samples.

Results

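The genes described here are 40 genes of fatty acid oxidation, ketone body formation and PPARA control in mouse liver, out of 17043 genes tested. They were taken from a fixed list of names, matched to the gene assigned to each array probe, with the brightest probe used per gene. All 40 were found, 3 of them under older names (Hadh as Hadhsc, Eci1 as Dci and Eci2 as Peci), and all 40 passed the filter on dim probes. The chosen probes were well above background on all 12 arrays, except that of Decr1 on 1 array, and none was saturated.

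Liver RNA of 12 male C57BL/6 mice was hybridised to 12 1-colour Agilent arrays of 60-base probes, 1 array per mouse. The mice were SIRT1+/+ (WT) or SIRT1+/- (Het), and they ate low-fat or high-fat food, which gave 4 groups of 3. Feeding lasted 34 weeks in all of them. SIRT1 is an NAD-dependent deacetylase, and the Het mice carry a single working copy of its gene; how that allele was made and the age of the mice are not given in the sources used here. Every group shares strain, sex and length of feeding, so the low-fat groups are the controls for diet and the WT groups those for genotype. A level below is the log2 signal of a probe relative to the 75th percentile of its array, and a difference is a difference of such levels, given with its standard error (SE). Levels of different probes are not compared.

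In the liver, fatty acids are activated to acyl-CoA, carried into mitochondria by the carnitine shuttle and shortened in cycles of beta-oxidation. Very long chains are shortened first in peroxisomes, and surplus acetyl-CoA leaves the liver as ketone bodies. PPARA is the nuclear receptor that fatty acids activate. With the coactivator PPARGC1A and the liver transcription factor CREB3L3 it drives most of these genes in fasting, among them the hormone FGF21, and SIRT1 is known to act on both PPARA signalling and PPARGC1A.

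Sirt1 itself, which checks the genotype labels, was 0.44 ± 0.09 lower in Het than in WT mice over both diets (n = 6 against 6), and all Het arrays lay below all WT arrays on either diet. The Sirt1 difference missed the threshold (adjusted p = 0.972), and whether its probe lies in the altered part of the gene is not known here. The 75th percentile of the arrays ran from 975 to 2006 units of signal, with 58.0% to 71.6% of spots well above background. Each slide and each scan day held arrays of a single diet, so diet cannot be told apart from slide or scan day. Hepatocyte markers were bright in all groups, with a summed level (signal over the 75th percentile) of 831 to 1349 over 8 measured genes; Alb, saturated on all 12 arrays, and Fgb, saturated on 6, are left out of this sum. In bulk liver, fewer cells of a type and less RNA per cell cannot be told apart. The labels give 3 biological samples per group, and the precision of every value below is limited by that number.

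The first question was whether the high-fat diet changed these genes. Over both genotypes, 7 of the 40 rose and 3 fell. The 7 were Pdk4, Fgf21, Vnn1, Pex11a, Acads, Acaa1b and Acadvl, and the 3 were Acsl1, Acadl and Acot1. The largest rise was that of Pdk4, 2.99-fold, and the largest fall that of Acot1, 1.52-fold. Ppara, Ppargc1a, Creb3l3, Cpt1a and both ketone body genes did not pass.

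The 10 genes make up 25% of the 40, against 30.2% of all genes called in the same comparison (limma, adjusted p under 0.05), so their share was near the background. In the upward direction it was 17.5% of the 40 against 13.4% of all genes, and in the downward direction 7.5% against 16.7%. The median difference of the 40 genes was 0.13, against -0.03 over all genes. In 24 of 40 the difference was above 0, against 46.8% of all genes. No member separated all 6 high-fat from all 6 low-fat arrays, which 13.4% of all genes did.

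Within WT mice alone 0 of 40 passed, where 5.89% of all genes did, and 5 of the 40 had an unadjusted p under 0.05 (limma), as did 4397 of all 17043 genes. Within Het mice 2 passed, Pex11a and Acads, both higher (5% of the 40), where 15.8% of all genes passed and 7.6% passed upwards. Among the dimmer probes, which these counts leave out, an Acaa1a probe (0.77 ± 0.19, adjusted p = 0.0239) and an Acot4 probe (0.94 ± 0.25, adjusted p = 0.0302) also passed in Het mice. The high-fat and low-fat arrays did not overlap for 12 of the 40 genes in Het mice, 8 higher and 4 lower, against 36.5% of all genes. In WT mice they did not overlap for 2 genes, Decr2 (higher) and Angptl4 (lower), against 30.4% of all genes. These within-genotype counts do not show that the genotypes differ in their response, and the test of that difference, the interaction, called 0 of 40.

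The count of 10 rests on all arrays together. It was 2 without Het high-fat replicate 1, 3 without WT high-fat replicate 1, WT low-fat replicate 1 or Het low-fat replicate 3, 4 without Het low-fat replicate 1, 5 without WT high-fat replicate 3, and 6 without Het high-fat replicate 2 or Het low-fat replicate 2. In these fits 22.2% to 28.3% of all genes passed. Pex11a and Acads passed in each of the 12 fits that left out 1 array. With the slide as a random block, whose estimated correlation was -0.18, the count was 18, and it was 2 in WT and 11 in Het mice. Of all genes 51.1% passed over both genotypes in that fit, 21.1% in WT and 31.8% in Het mice. A negative correlation narrows the SE of a diet difference when each slide holds a single diet, as here. Calls gained with that block, here and below, are therefore not read as support for a diet difference. With each array scaled to its median, 9 genes were called higher and 0 lower, although Acot1, Acsl1 and Acadl still differed by -0.55, -0.27 and -0.21. With the trend on GC content and brightness removed 9 were called higher and 2 lower, and by quantiles 8 and 3. Of all genes 27.8% passed with median scaling, 29.7% with the trend removed and 31.5% by quantiles. The count of lower calls was also 0 without the filter on dim probes and in 6 of the 12 fits that left out 1 array. That scaling to the median raised the median difference of all genes in WT mice from -0.05 to 0.07.

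**Figure D1:**
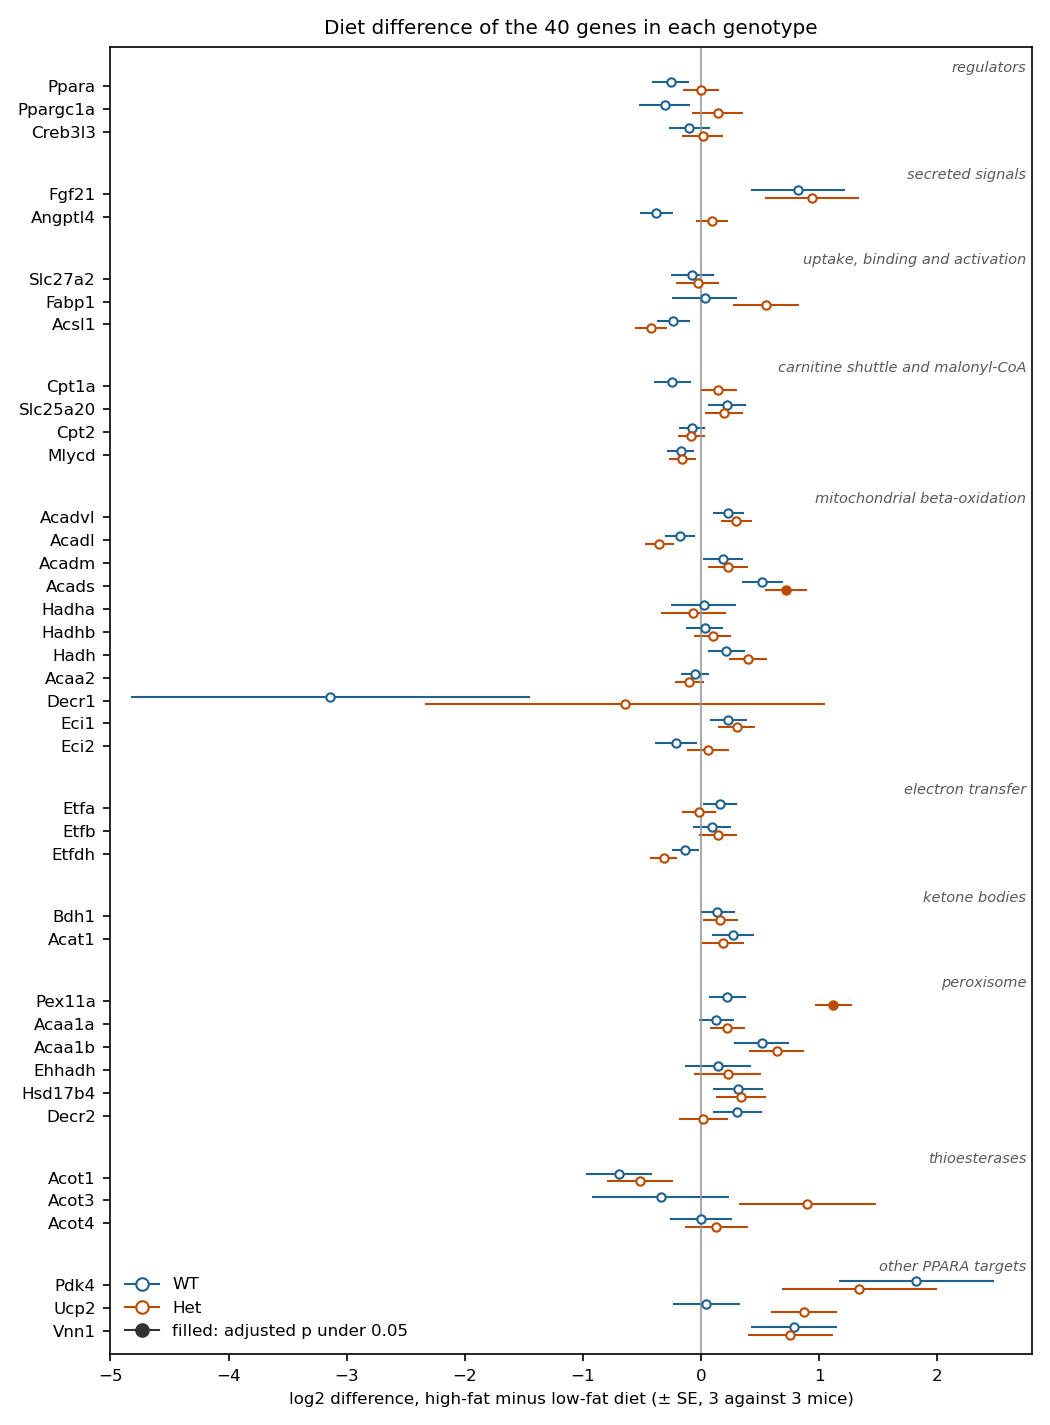
Difference between the high-fat and low-fat diet (log2, horizontal axis) for each of the 40 genes, grouped by role, in WT (blue) and Het (orange) mice, with SE bars, 3 against 3 mice; filled points have an adjusted p under 0.05. Only Pex11a and Acads are filled, both in Het mice, and the wide bars of Decr1 come from 1 array with a level of -7.69.

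**Figure D2:**
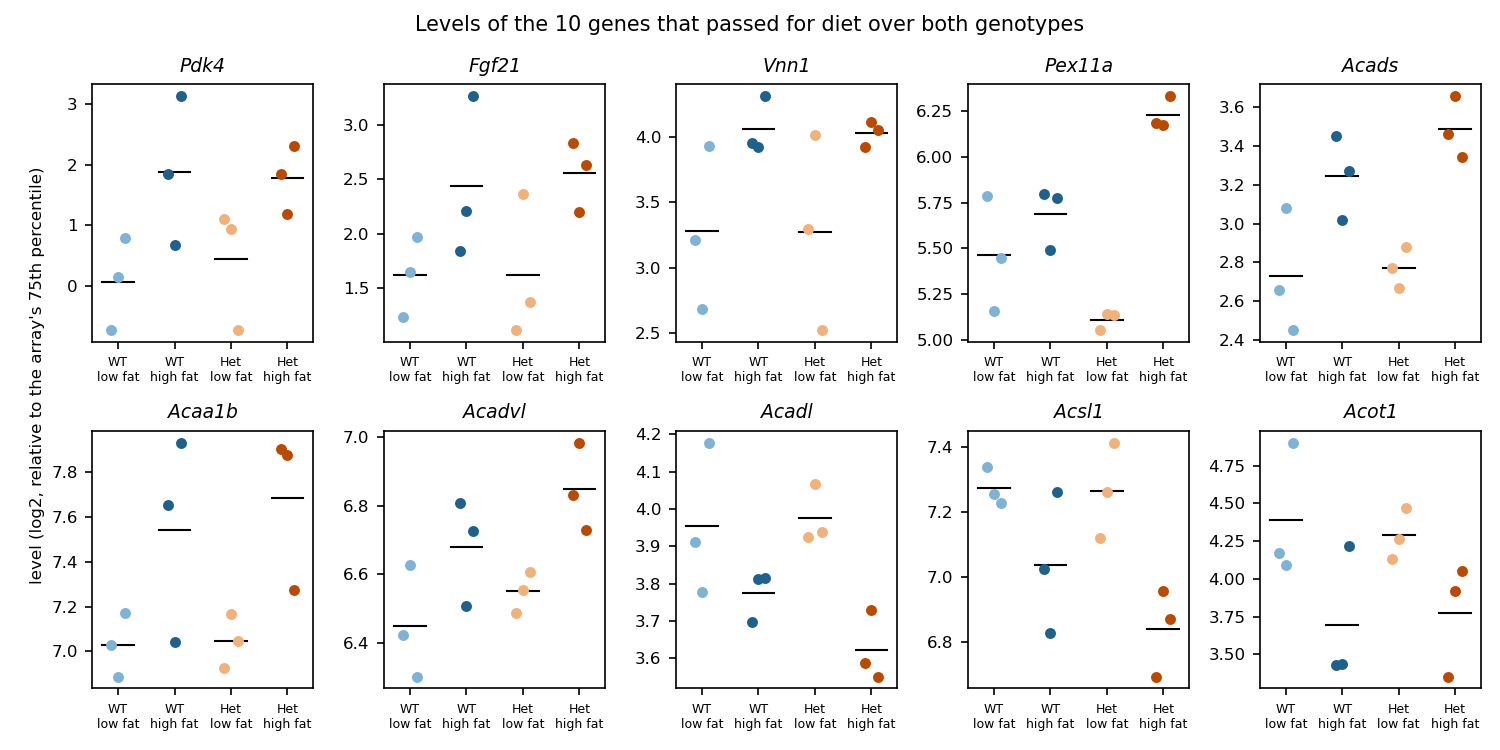
Level on each array (points, log2 relative to the array's 75th percentile) and group mean (lines) of the 10 genes that passed for diet over both genotypes, 3 mice per group, each panel on its own axis. The 3 Het high-fat arrays of Pex11a, at 6.17 to 6.33, stand above all its other arrays, while in the other panels at least 1 high-fat array lies within the low-fat range.

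The regulators came first in order of action. Ppara, the nuclear receptor, had levels of 4.34, 4.83 and 4.96 in WT and 4.51, 4.56 and 4.72 in Het mice on the low-fat diet. Ppara on the high-fat diet was at 4.36, 4.47 and 4.52 in WT and 4.52, 4.60 and 4.67 in Het mice. All 4 groups overlapped, and the diet difference over both genotypes was -0.13 ± 0.11 (95% interval -0.37 to 0.11, adjusted p = 0.393).

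Ppargc1a, the coactivator that SIRT1 deacetylates, had levels of 0.62, 1.04 and 1.15 in WT and 0.52, 0.86 and 1.26 in Het mice on the low-fat diet. Ppargc1a on the high-fat diet was at 0.42, 0.67 and 0.79 in WT and 0.74, 1.12 and 1.20 in Het mice. The 4 groups overlapped here too, and the diet difference was -0.08 ± 0.15 (interval -0.42 to 0.25). A second Ppargc1a probe had the opposite sign, 0.23 ± 0.15 (adjusted p = 0.279). Creb3l3, a membrane-bound factor released in fasting, had levels of 5.71, 5.80 and 5.98 in WT and 5.52, 5.79 and 6.04 in Het mice on the low-fat diet. Creb3l3 on the high-fat diet was at 5.62, 5.66 and 5.91 in WT and 5.48, 5.95 and 5.96 in Het mice. Its diets overlapped in both genotypes, and the difference was -0.04 ± 0.12 (interval -0.32 to 0.23). None of the regulators passed in any of the 7 comparisons, and a fall of the size of that of Acadl (0.27) lies within all 3 intervals.

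Of the secreted signals, Fgf21 rose. Fgf21, the fasting hormone made by the liver under PPARA, had levels of 1.24, 1.65 and 1.97 in WT and 1.12, 1.37 and 2.37 in Het mice on the low-fat diet. Fgf21 on the high-fat diet was at 1.84, 2.21 and 3.26 in WT and 2.20, 2.63 and 2.84 in Het mice. The highest value was on a WT high-fat array, and within each genotype 1 or more arrays of the diets crossed. Over both genotypes Fgf21 was 0.88 ± 0.28 higher, or 1.84-fold (n = 6 against 6, adjusted p = 0.0380), and the second Fgf21 probe gave 0.86 ± 0.33 (adjusted p = 0.0710). The rise was 0.82 in WT and 0.94 in Het mice, and neither passed alone. With the trend on GC content and brightness removed the Fgf21 difference was 1.44 over both genotypes, and 1.69 in Het mice, which passed (adjusted p = 0.0209), as it did with the slide as a random block (1.06, adjusted p = 0.0341). The call over both genotypes was lost without the filter on dim probes and in 7 of the 12 fits that left out 1 array: without WT high-fat replicate 3, Het high-fat replicates 1 or 3, WT low-fat replicates 1 or 2, or Het low-fat replicates 1 or 3. Angptl4, a secreted inhibitor of lipoprotein lipase, was 0.38 ± 0.14 lower on the high-fat diet in WT mice (adjusted p = 0.116) and 0.09 ± 0.14 higher in Het mice (adjusted p = 0.678), and passed in neither.

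Uptake, binding and activation were represented by Slc27a2, a fatty acid transporter with acyl-CoA synthetase activity, Fabp1, the liver fatty acid binding protein, and Acsl1, the main acyl-CoA synthetase of the liver. Acsl1 fell. Acsl1 had levels of 7.23, 7.25 and 7.34 in WT and 7.12, 7.26 and 7.41 in Het mice on the low-fat diet. Acsl1 on the high-fat diet was at 6.83, 7.02 and 7.26 in WT and 6.69, 6.87 and 6.96 in Het mice. In Het mice every high-fat array lay below every low-fat array, and in WT mice 1 high-fat array reached into the low-fat range. The fall was 0.33 ± 0.10, or 1.26-fold (adjusted p = 0.0271). The other Acsl1 probes gave -0.38 ± 0.15 and -0.50 ± 0.14, in the same direction. The call was lost when arrays were scaled to their medians (-0.27, adjusted p = 0.102) and without the filter on dim probes. It held in 6 of the 12 fits without 1 array. Slc27a2 (-0.05 ± 0.13) and Fabp1 (0.29 ± 0.20) did not pass, and their intervals were -0.34 to 0.23 and -0.14 to 0.72.

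Fabp1 also has the closest match to the element that PPARA binds, a direct repeat of AGGTCA with a single base between (AGGTCANAGGTCA). This motif was searched on both strands in the 250 bases before the start of each gene, from RefSeq on GRCm38.p6, allowing up to 2 mismatches, and 3.24% of all 32851 promoters held such a match. Of the 40 genes, 34 had an entry, with 38 promoters, of which 4 held a match (10.5%) and 0 the exact motif. Angptl4, Acat1, Hsd17b4, Acaa2, Decr1 and Vnn1 had no entry. Fabp1 had 1 mismatch, and Acot4, Creb3l3 and Etfa had 2 each. The sequences are shown because these are the members whose promoters hold a near match to the element, with the matched bases in capitals. With the brightest probe none of the 4 genes passed for diet. The other Acot4 probe did pass over both genotypes (0.64 ± 0.17, adjusted p = 0.0195). The Fabp1 match lies 67 to 55 bases before the start on the minus strand, in chr6:71199629-71199878 (plus strand).
Fabp1: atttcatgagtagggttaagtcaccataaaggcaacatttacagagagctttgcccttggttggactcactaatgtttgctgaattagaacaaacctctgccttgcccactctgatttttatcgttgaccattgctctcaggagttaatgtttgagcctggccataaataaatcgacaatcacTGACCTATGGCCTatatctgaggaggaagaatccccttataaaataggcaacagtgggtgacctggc
Creb3l3, chr10:81092763-81092825, minus strand, 209 to 197 bases before the start: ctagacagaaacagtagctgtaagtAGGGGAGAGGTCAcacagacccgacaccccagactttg
Etfa, chr9:55512283-55512345, minus strand, 77 to 65 bases before the start: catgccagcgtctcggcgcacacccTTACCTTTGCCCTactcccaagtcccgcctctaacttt
In Acot4 the match, read on the minus strand, is CGGCCAAAGGTCA, in the 13 bases just before the start. A match is a description of these letters, not of binding, and the element can lie outside this window.

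The carnitine shuttle did not pass. Cpt1a is the outer membrane enzyme that malonyl-CoA inhibits and the step that limits entry of fatty acids. Cpt1a had levels of 4.81, 5.04 and 5.36 in WT and 4.84, 4.96 and 5.20 in Het mice on the low-fat diet. Cpt1a on the high-fat diet was at 4.72, 4.87 and 4.89 in WT and 5.02, 5.13 and 5.29 in Het mice. The diets overlapped in both genotypes, and over both the Cpt1a difference was -0.05 ± 0.11 (interval -0.29 to 0.20, adjusted p = 0.764). A second Cpt1a probe gave 0.22 ± 0.10 (adjusted p = 0.118). That probe was at -0.006 ± 0.14 in WT and 0.44 ± 0.14 in Het mice (adjusted p = 0.0560 in Het mice). The brighter Cpt1a probe was at -0.24 ± 0.16 in WT and 0.15 ± 0.16 in Het mice.

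Mlycd, malonyl-CoA decarboxylase, removes that inhibitor. Mlycd had levels of 6.02, 6.17 and 6.27 in WT and 6.08, 6.20 and 6.25 in Het mice on the low-fat diet. Mlycd on the high-fat diet was at 5.87, 6.01 and 6.06 in WT and 5.92, 6.02 and 6.10 in Het mice. Mlycd was 0.17 ± 0.08 lower on the high-fat diet, which did not pass (adjusted p = 0.137). The carrier Slc25a20 (0.20 ± 0.11) and the inner membrane enzyme Cpt2 (-0.08 ± 0.08) did not pass either. So 0 of these 4 genes passed, with differences from -0.17 to 0.20.

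Mitochondrial beta-oxidation opens with the acyl-CoA dehydrogenases, which act on very long, long, medium and short chains. The 4 genes did not move together: Acads and Acadvl rose, Acadl fell and Acadm did not pass. Acads, the short-chain enzyme, had levels of 2.45, 2.66 and 3.08 in WT and 2.67, 2.77 and 2.88 in Het mice on the low-fat diet. Acads on the high-fat diet was at 3.02, 3.27 and 3.45 in WT and 3.34, 3.46 and 3.66 in Het mice. In Het mice all high-fat arrays lay above all low-fat arrays, and in WT mice 1 low-fat array lay above the lowest high-fat array. Acads rose by 0.62 ± 0.12 over both genotypes, or 1.53-fold (adjusted p = 0.00526), and by 0.72 ± 0.18 in Het mice (adjusted p = 0.0231). In WT mice it was 0.52 ± 0.18 higher (adjusted p = 0.0996). The Het call on Acads was lost without Het high-fat replicates 1 or 2 or Het low-fat replicates 1 or 2, and without the filter on dim probes, with an adjusted p of up to 0.0718 over all its alternatives.

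Acadvl, the very long-chain enzyme, had levels of 6.30, 6.42 and 6.63 in WT and 6.49, 6.56 and 6.61 in Het mice on the low-fat diet. Acadvl on the high-fat diet was at 6.51, 6.73 and 6.81 in WT and 6.73, 6.83 and 6.98 in Het mice. The rise of 0.26 ± 0.09, or 1.20-fold, was just inside the threshold (adjusted p = 0.0491). Acadl, the long-chain enzyme, had levels of 3.78, 3.91 and 4.18 in WT and 3.93, 3.94 and 4.07 in Het mice on the low-fat diet. Acadl on the high-fat diet was at 3.70, 3.81 and 3.82 in WT and 3.55, 3.59 and 3.73 in Het mice. Its high-fat arrays lay below its low-fat arrays in Het mice and crossed them in WT mice. Acadl fell by 0.27 ± 0.09, or 1.20-fold (adjusted p = 0.0412). The calls on Acadvl and Acadl were lost under 4 and 5 of 10 alternatives, and they held in 3 and 2 of the 12 fits without 1 array. With the trend on GC content and brightness removed the differences were 0.11 (adjusted p = 0.224) and -0.09 (adjusted p = 0.419), and with arrays scaled to their medians the Acadl difference was -0.21 (adjusted p = 0.181). Acadm, the medium-chain enzyme, was 0.21 ± 0.12 higher and did not pass (adjusted p = 0.221).

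Of the enzymes that complete the cycle, Hadh, the short-chain hydroxyacyl-CoA dehydrogenase, came closest to the threshold, at 0.31 ± 0.11 (adjusted p = 0.0618), and it passed when arrays were scaled to their medians, by quantiles or with the trend on GC content and brightness removed. Hadha and Hadhb, the subunits of the trifunctional protein, were at -0.02 ± 0.19 and 0.06 ± 0.11. The second Hadha probe gave -0.87 ± 0.33 (adjusted p = 0.0697), so the probes of Hadha differ in size. Acaa2, the thiolase, was at -0.08 ± 0.09. Eci1 and Eci2, isomerases for unsaturated chains, were at 0.26 ± 0.11 and -0.08 ± 0.12. Decr1, the reductase for unsaturated chains, had a level of -7.69 on WT high-fat replicate 2, where its probe was not well above background, and of 0.10 to 1.34 on the other 11 arrays. Its diet difference in WT mice was therefore -3.14 ± 1.69, and -0.39 without that array; its second probe gave -0.05 ± 0.15. In all, 2 of these 11 genes rose, 1 fell and 8 did not pass.

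Etfa, Etfb and Etfdh pass the electrons of the dehydrogenases to the respiratory chain. Etfdh was 0.23 ± 0.08 lower on the high-fat diet, just outside the threshold (adjusted p = 0.0576), and in Het mice its high-fat and low-fat arrays did not overlap. It did pass after normexp background correction (-0.28, adjusted p = 0.0321) and by quantiles (-0.29, adjusted p = 0.0432). In Het mice it passed after normexp background correction as well (-0.53, adjusted p = 0.0140). A second Etfdh probe gave -0.10 ± 0.12 (adjusted p = 0.561). That probe was at 0.13 ± 0.17 in WT and -0.33 ± 0.17 in Het mice. Etfa (0.07 ± 0.10) and Etfb (0.12 ± 0.12) did not pass. So 0 of 3 passed.

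Neither ketone body gene passed. Acat1 joins acetyl-CoA units at the start of ketogenesis, and Bdh1 makes 3-hydroxybutyrate from acetoacetate. Acat1 had levels of 4.61, 5.14 and 5.24 in WT and 4.79, 4.93 and 5.19 in Het mice on the low-fat diet. Acat1 on the high-fat diet was at 5.21, 5.27 and 5.31 in WT and 4.92, 5.24 and 5.31 in Het mice. The Acat1 difference was 0.23 ± 0.13 (interval -0.06 to 0.51, adjusted p = 0.20). Acat1 did pass with the trend on GC content and brightness removed (0.38, adjusted p = 0.0257) and with the slide as a random block (0.24, adjusted p = 0.0451). Bdh1 had levels of 6.25, 6.31 and 6.61 in WT and 6.26, 6.41 and 6.62 in Het mice on the low-fat diet. Bdh1 on the high-fat diet was at 6.49, 6.50 and 6.61 in WT and 6.39, 6.59 and 6.80 in Het mice. The Bdh1 difference was 0.15 ± 0.10 (interval -0.08 to 0.38, adjusted p = 0.302). In both genes the diets overlapped in each genotype. Of 7 other measured genes of ketone body metabolism 0 passed.

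The peroxisomal genes all had differences above 0, from 0.16 for Decr2 to 0.67 for Pex11a, and 2 of 6 passed. Pex11a, a membrane protein of peroxisome division and a classical PPARA target, had levels of 5.16, 5.45 and 5.79 in WT and 5.05, 5.14 and 5.14 in Het mice on the low-fat diet. Pex11a on the high-fat diet was at 5.49, 5.77 and 5.80 in WT and 6.17, 6.18 and 6.33 in Het mice. The Het high-fat arrays lay above all 9 other arrays, and the Het low-fat arrays below all others. Pex11a rose by 0.67 ± 0.11 over both genotypes, or 1.59-fold (adjusted p = 0.00222). In Het mice the rise was 1.12 ± 0.16, or 2.17-fold (adjusted p = 0.00425), and in WT mice the difference was 0.22 ± 0.16 (adjusted p = 0.395). Both calls on Pex11a held under every alternative run, with adjusted p of at most 0.0192.

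Acaa1a and Acaa1b are near-identical copies of the peroxisomal thiolase, so a probe may read both. Acaa1b had levels of 6.89, 7.03 and 7.17 in WT and 6.93, 7.05 and 7.17 in Het mice on the low-fat diet. Acaa1b on the high-fat diet was at 7.04, 7.65 and 7.93 in WT and 7.28, 7.87 and 7.90 in Het mice. Acaa1b rose by 0.57 ± 0.16, or 1.49-fold (adjusted p = 0.0233), with its lowest high-fat value in each genotype on WT replicate 2 and Het replicate 3. The Acaa1b call was lost without the filter on dim probes and held in 7 of the 12 fits without 1 array. The brightest Acaa1a probe gave 0.17 ± 0.11 (adjusted p = 0.232), while both other Acaa1a probes passed, and one of them gave 0.71 ± 0.13 (adjusted p = 0.00399). That probe is shown because its value differs from that of the brightest; it lies across an intron of the gene, at chr9:119026729-119027949 (mm7, per the file headers).
Acaa1a probe of 0.71: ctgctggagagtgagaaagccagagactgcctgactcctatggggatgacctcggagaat
With all probes of a gene averaged, Acaa1a passed and the count of members was 11, 8 higher and 3 lower, where 30.4% of all genes passed. Which of the copies each probe reads was not tested. Ehhadh, the peroxisomal bifunctional enzyme, was at 0.18 ± 0.20, Hsd17b4, its partner for branched chains, at 0.32 ± 0.15 and Decr2, the peroxisomal reductase, at 0.16 ± 0.15, and none passed. Hsd17b4 did pass with arrays scaled to their medians (adjusted p = 0.0488), with the trend on GC content and brightness removed (adjusted p = 0.0143) and with the slide as a random block (adjusted p = 0.0188).

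The acyl-CoA thioesterases Acot1, Acot3 and Acot4, which free fatty acids from CoA and are strong PPARA targets, are also close copies in a cluster and are uncertain as single genes. Acot1 had levels of 4.09, 4.17 and 4.90 in WT and 4.13, 4.26 and 4.47 in Het mice on the low-fat diet. Acot1 on the high-fat diet was at 3.43, 3.43 and 4.22 in WT and 3.35, 3.92 and 4.05 in Het mice. The high-fat arrays lay below the low-fat arrays in Het mice, and 1 crossed in WT mice. Acot1 fell by 0.60 ± 0.20, or 1.52-fold (adjusted p = 0.0412), a call that ended when arrays were scaled to their medians (-0.55, adjusted p = 0.0959). It was also lost without the filter on dim probes, and it held in 3 of the 12 fits without 1 array. Acot3 (0.28 ± 0.41) did not pass. The brighter Acot4 probe gave 0.06 ± 0.19 and the other 0.64 ± 0.17 (adjusted p = 0.0195), so the probes of Acot4 disagree.

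Pdk4, Ucp2 and Vnn1 are PPARA targets outside the oxidation cycle. Pdk4, the kinase that closes pyruvate dehydrogenase and so spares glucose, had levels of -0.74, 0.13 and 0.78 in WT and -0.73, 0.94 and 1.11 in Het mice on the low-fat diet. Pdk4 on the high-fat diet was at 0.67, 1.85 and 3.13 in WT and 1.18, 1.85 and 2.31 in Het mice. In Het mice the diets did not overlap, by a narrow margin, and in WT mice they crossed. Pdk4 rose by 1.58 ± 0.47, or 2.99-fold (adjusted p = 0.0271). That call was lost without the filter on dim probes and held in 6 of the 12 fits without 1 array. Vnn1, a pantetheinase, had levels of 2.69, 3.21 and 3.93 in WT and 2.52, 3.29 and 4.01 in Het mice on the low-fat diet. Vnn1 on the high-fat diet was at 3.92, 3.96 and 4.31 in WT and 3.93, 4.06 and 4.11 in Het mice. All 6 high-fat arrays lay at or above 3.92, and 4 of 6 low-fat arrays lay at or below 3.29. Vnn1 rose by 0.77 ± 0.26, or 1.70-fold (adjusted p = 0.0431), a call that held in 2 of the 12 fits without 1 array. Ucp2, an uncoupling protein of the inner membrane, was 0.87 ± 0.28 higher in Het mice (adjusted p = 0.0597) and 0.04 ± 0.28 in WT mice. Its probe was dim, with levels of -2.42 to -0.73. A second Ucp2 probe gave 0.50 ± 0.33 in Het mice (adjusted p = 0.325) and 0.16 ± 0.33 in WT mice.

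**Figure D3:**
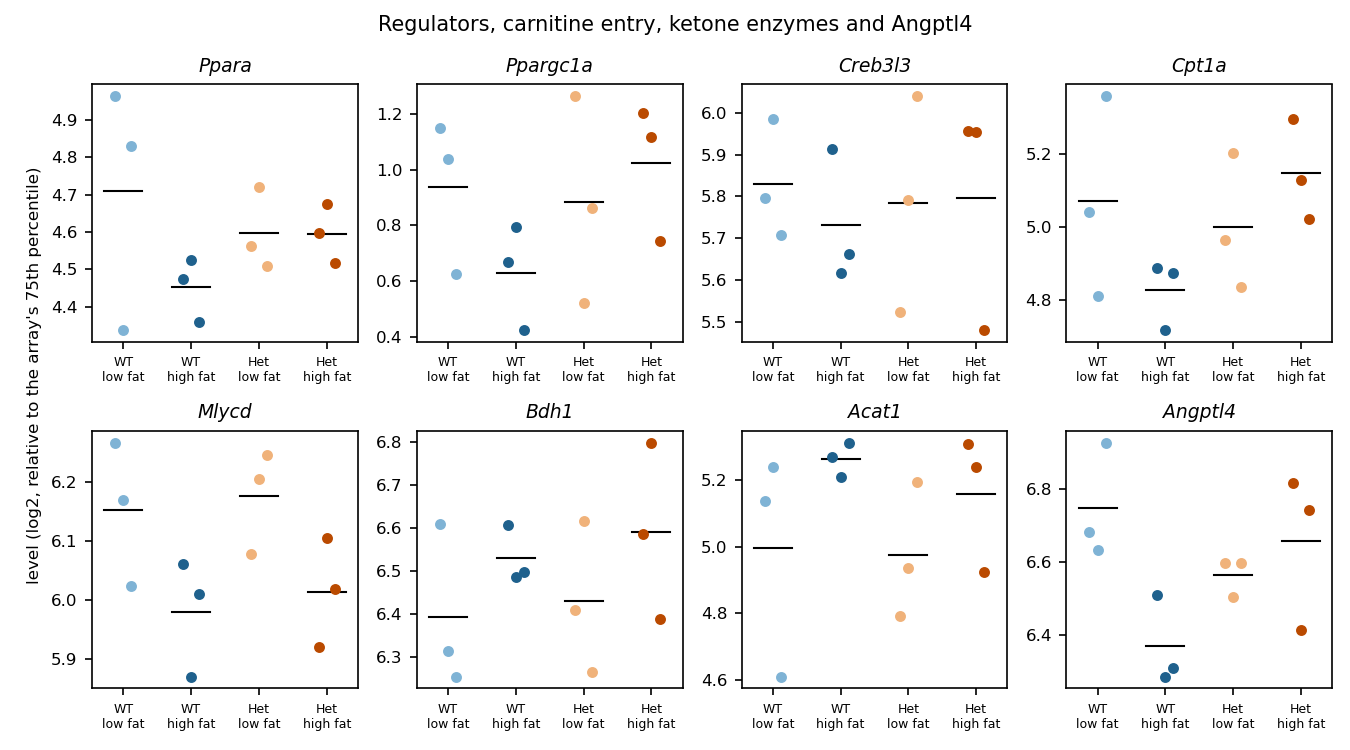
Array levels (points, log2 relative to the array's 75th percentile) and group mean (lines) of 8 genes that did not pass: the regulators Ppara, Ppargc1a and Creb3l3, Cpt1a and Mlycd, the ketone body genes Bdh1 and Acat1, and Angptl4, with 3 mice per group and each panel on its own axis. The diets overlap in both genotypes in every panel except that of Angptl4, whose WT high-fat arrays (6.29 to 6.51) lie below its WT low-fat arrays (6.63 to 6.93).

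The second question was whether loss of a Sirt1 copy changed these genes. On the high-fat diet 0 of 40 passed (0% of all genes, limma), on low-fat food 0 of 40 (0%), over both diets 0 of 40 (0%), and for the interaction of genotype and diet 0 of 40 (0%). At an unadjusted p under 0.05 the counts were 2, 1, 0 and 2 members, against 1475, 341, 824 and 828 of all genes. On the high-fat diet the genotypes did not overlap for 4 members, Cpt1a, Pex11a and Ucp2 (higher in Het) and Etfa (lower), against 14.9% of all genes. On the low-fat diet they did not overlap for Angptl4 and Pex11a, both lower in Het, against 4.35% of all genes, and over both diets for 0 members against 0.0469%.

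Pex11a is in both lists and runs opposite ways. Its level was 0.54 ± 0.16 higher in Het than in WT mice on the high-fat diet (adjusted p = 0.446) and 0.35 ± 0.16 lower on the low-fat diet (adjusted p = 0.9999). The difference between these was 0.90 ± 0.22 (interval 0.40 to 1.39), which missed the threshold (adjusted p = 0.944). With the slide as a fixed block it was 0.87. On slide 2, which held 1 WT and 3 Het high-fat arrays, Het was 0.46 higher, and on slide 3, which held 3 WT and 1 Het low-fat arrays, Het was 0.41 lower. The Het array on slide 3, Het low-fat replicate 1, held the lowest value of its group for 26 of the 40 genes (65%, against 34.6% of all genes). Its Pex11a level was 5.05, against 5.14 on the other Het low-fat arrays.

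Cpt1a was 0.32 ± 0.16 higher in Het mice on the high-fat diet (adjusted p = 0.602; 0.27 within slide 2), Ucp2 0.72 ± 0.28 higher (adjusted p = 0.522; 0.75 within slide 2) and Etfa 0.28 ± 0.14 lower (adjusted p = 0.620). The second probes gave 0.41 ± 0.14 for Cpt1a (adjusted p = 0.437) and 0.48 ± 0.33 for Ucp2 (adjusted p = 0.722). For Ppara the genotype difference over both diets was 0.02 ± 0.11 (interval -0.23 to 0.26), for Ppargc1a 0.17 ± 0.15 (interval -0.17 to 0.50) and for Fgf21 0.06 ± 0.28 (interval -0.56 to 0.68). The median genotype difference of the 40 genes was 0.06 under high fat and -0.0066 under low fat, against 0.03 and -0.0031 over all genes. The sign of the high-fat median depended on the processing. It was -0.12 with the slide as a fixed block, -0.05 with median scaling and -0.06 without WT high-fat replicate 2. Over all genes these were 0.04, -0.09 and 0.02. Under the other alternatives the high-fat median of the 40 genes was 0.0071 to 0.17. The sign of the low-fat median changed too. It was 0.03 with the slide as a random block, 0.05 without Het low-fat replicate 1 and -0.13 with the slide as a fixed block. Over all genes these low-fat medians were 0.0034, 0.0084 and -0.03.

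In 3 of the 4 groups, 1 array held the lowest value of the group for most of the 40 genes. WT high-fat replicate 2 held the lowest value of its group for 33 of the 40 genes (82.5%), where it did so for 36.6% of all genes. Het high-fat replicate 3 held it for 28 (70%, against 49.0% of all genes) and Het low-fat replicate 1 for 26 (65% against 34.6%). The WT low-fat arrays held it for 17.5%, 37.5% and 45% of the 40 genes, near the 21.3%, 32.5% and 46.2% of all genes. After the trend on GC content and brightness was removed, WT high-fat replicate 2 held the lowest value for 26 of the 40 (65%, against 30.5% of all genes) and Het high-fat replicate 3 for 22 (55% against 38.6%). Het low-fat replicate 1 then held it for 19 (47.5% against 29.4%) and Het low-fat replicate 3 for 18, so these were nearly level. WT high-fat replicate 2, Het high-fat replicate 3 and Het low-fat replicate 1 had 75th percentiles of 1688, 1634 and 1956, the highest of the group in the first 2, but Het low-fat replicate 2 had 2006 and was lowest for 4 genes; the part of overall brightness in this was not tested. Without WT high-fat replicate 2 and Het high-fat replicate 3, a choice made after these values were seen, 10 members passed for diet over both genotypes, 9 higher and 1 lower, of which 5 are among the 10 above, and 5 passed in Het and 1 in WT mice. Of all genes 27.1% passed over both genotypes in that fit, 12.2% in Het and 1.55% in WT mice.

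**Figure D4:**
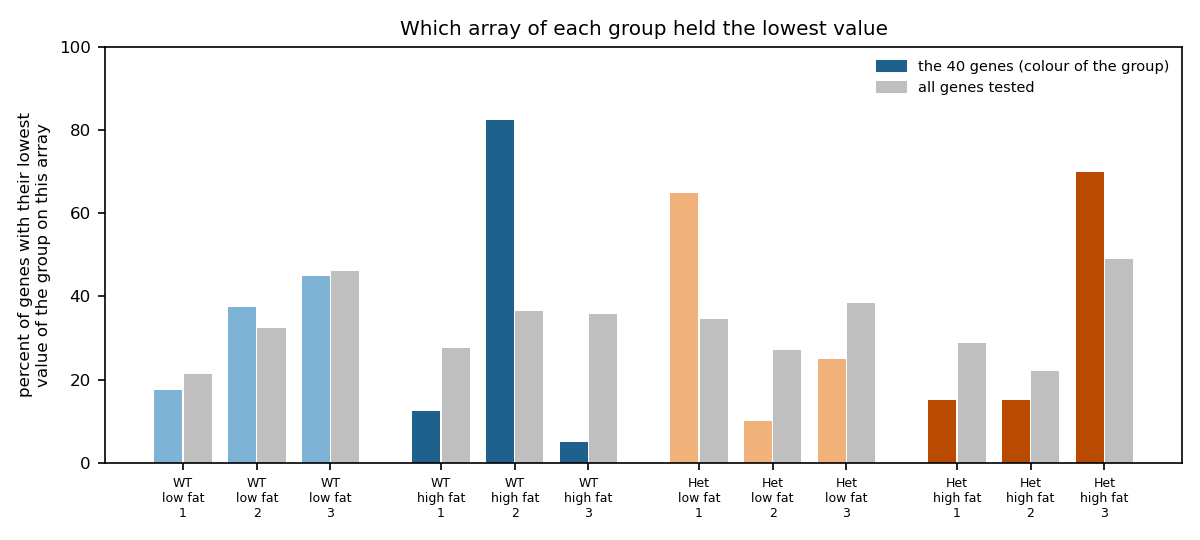
For each of the 12 arrays, the percent of the 40 genes (coloured bars) and of all genes tested (grey bars) whose lowest value within the group of 3 lay on that array. WT high-fat replicate 2 stands at 82.5% of the 40 genes against 36.6% of all genes.

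The wider pathway was followed in 170 further measured genes of 179 listed. For diet over both genotypes, 12 of 25 genes of acyl-CoA synthesis and hydrolysis, fatty acid uptake and binding rose and 0 fell, and their median difference was 0.36. Of all genes 13.4% passed upwards and 16.7% downwards in that comparison, and the counts that follow are to be read against these shares. In WT mice 4 of those 25 rose, where 2.72% of all genes did, and in Het mice 9 rose, where 7.6% did, and 0 fell in either. Of 31 other genes of peroxisomal oxidation 1 rose and 7 fell (median -0.04), and of 32 nuclear receptors and cofactors 3 rose and 10 fell (median -0.12). With each array scaled to its median these became 2 and 4, and 3 and 5. Of 34 other PPARA targets 10 rose and 3 fell (median 0.10), and of 23 other mitochondrial enzymes and carriers 4 rose and 4 fell (median -0.01). In omega oxidation 1 of 9 rose and 1 fell, and among genes of malonyl-CoA and AMPK 2 of 9 rose and 2 fell. The 7 ketone body genes had 0 calls, and 2 higher calls once the trend on GC content and brightness was removed. In the 3 genotype comparisons and the interaction 0 of these genes passed.

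The 6 of lowest p were Hacl1, Prkab2, Fabp4, Acot9, Pparg and Cyp4f14, and each passed in WT and in Het mice as well. Hacl1, the peroxisomal lyase of alpha-oxidation, had levels of 1.89 to 2.47 on the 6 low-fat arrays, and on the high-fat arrays its highest level was 1.43 and its lowest -0.23. Every high-fat array lay below every low-fat array, and Hacl1 fell by 1.44 ± 0.16, or 2.72-fold (adjusted p = 5.11e-04). Cyp4f14, an omega-hydroxylase, fell by 1.09 ± 0.14, or 2.13-fold. Fabp4, the adipocyte fatty acid binding protein, rose by 1.71 ± 0.20, or 3.28-fold, and Pparg, the nuclear receptor of fat storage, by 1.16 ± 0.14, or 2.23-fold. Acot9, a mitochondrial thioesterase, rose by 1.15 ± 0.14, and Prkab2, an AMPK subunit, by 0.82 ± 0.09. The adjusted p of these 6 genes were between 5.11e-04 and 7.07e-04.

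Markers of other cells moved with diet too. Of 10 stellate cell and fibroblast markers 7 rose and 0 fell, with a summed level of 55.6 to 77.2 on the low-fat and 76.9 to 109.5 on the high-fat arrays. Of 7 cholangiocyte markers 4 rose, with a summed level of 6.75 to 9.68 on the low-fat and 13.2 to 69.8 on the high-fat arrays. Of 12 macrophage markers 3 rose and 2 fell, with summed levels that overlapped between diets. Of 10 hepatocyte markers 0 rose and 3 fell, and the sum over the 8 whose probes were not saturated was 998 to 1349 on the low-fat and 831 to 1129 on the high-fat arrays. Of 4 neutrophil markers 1 rose, of 8 endothelial markers 1 rose and 2 fell, of 5 T and NK cell markers 0 rose and 2 fell, and of 2 muscle and brown fat markers 1 rose; of 3 B cell and 2 red blood cell markers none passed. Of 6 adipocyte markers only Cfd was measured, and it rose by 1.67 ± 0.56; Adipoq, Plin1, Retn, Lep and Adrb3 had no probe that passed the filter. The part of these cells in the differences above was not tested.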

How the data were processed

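Total RNA of 12 livers was measured on 1-colour Cy3 arrays. The authors' deposited scanner files give an intensity per spot, from Agilent Feature Extraction 9.5 according to the submitters' processing notes, with background subtracted and spatial trends removed per the file headers. The table deposited for the series as a whole equals these intensities within 0.01% at all 45018 spots of each array (linear, not centred, column medians 78.3 to 163.4 over non-control spots). Flags for background, saturation and outliers have no unit.

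Each processed intensity was taken as log2 minus the log2 of the 75th percentile of the non-control spots of its array. Control spots and 1344 outlier-flagged spots were left out and spots of a probe averaged. A probe needed a signal well above background throughout 1 group or more, and values on at least 2 arrays in each, which kept 25297 of 41174. A probe was assigned to the gene of the RefSeq transcript that the array design lists for it, where that gave a single gene (22951 probes). Other probes went by their gene name, current or older. The brightest probe stood for each of 17043 genes. limma 3.58.1 (R 4.3.3) fitted the 4 group means on all 12 arrays and tested contrasts two-sided; p-values were adjusted by Benjamini-Hochberg across the 17043 genes, with a threshold of 0.05 (8 residual and 2.80 prior degrees of freedom). The procedure was tested on simulated data.

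There were 7 comparisons: diet in WT, in Het and over both, genotype on each diet and over both, and the interaction. Values in each array are given for each member that passed and for Ppara, Ppargc1a, Creb3l3, Fgf21, Cpt1a, Bdh1, Acat1 and Mlycd, and other genes of the pathway are named where they had 1 of the 6 lowest p for diet over both genotypes or passed for genotype. Members, gene lists and this rule were chosen with earlier results of these data known. Alternatives were background correction (normexp, offset 50), scaling (median, quantile, GC and brightness trend), filters, probe choice, flagged spots, slide, replicate block, the groups compared alone and leaving out each array. RefSeq promoter sequences are on GRCm38.p6. Some items are not reported here.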

Additional observations from a re-analysis of the deposited data

Results flagged for a closer look

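Pex11a was singled out because its genotype difference ran opposite ways on the 2 diets, with every Het array above every WT array on the high-fat diet and below every WT array on the low-fat diet. The interaction was 0.90 ± 0.22 on the log2 scale, with an adjusted p of 0.944 (limma) and of at least 0.375 under each of its alternatives. It was between 0.74 and 1.05 in the fits without 1 array. No other member had such a pair of differences. No test for outlying samples was run within groups of 3 arrays. The arrays that held the lowest value for most members are described above. Leaving out WT high-fat replicate 2 and Het high-fat replicate 3 was a choice made after those values were seen.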

How the results depend on the processing

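Of the counts of members that passed, those for genotype and for the interaction were 0 under every alternative run. For diet in WT mice the count was 0. It was 1 (Acads) when arrays were scaled to their medians (7.84% of all genes) and 2 (Acads and Angptl4) with the slide as a random block (21.1%). For diet in Het mice it was 2, with 6 after normexp background correction (16.7% of all genes) and 5 with the trend on GC content and brightness removed (14.9%). It was 1 without the filter on dim probes (4.3%) and 11 with the slide as a random block (31.8%). For diet over both genotypes it was 10, with 2 without that filter, when 27668 genes were tested (13.7% of them passed), and 18 with the slide as a random block (51.1%). Leaving out 1 array gave 0 to 1 in WT, 1 to 3 in Het and 2 to 10 over both genotypes, the last including the fit without WT high-fat replicate 2 and Het high-fat replicate 3, which gave 1 in WT and 5 in Het mice. In the fits without 1 array, 1.09% to 6.61% of all genes passed in WT, 5.13% to 16.9% in Het and 22.2% to 32.3% over both genotypes. The cause of these changes was not tested. Of all genes called for diet over both genotypes, 44.5% were higher, 60.4% with median scaling and 50.1% with quantiles; in WT mice these were 46.3%, 74.6% and 59.6%. No member's difference that passed changed sign under any alternative run. With the replicate number as a block, 7 members passed for diet over both genotypes (5 higher, 2 lower), 2 in Het and 0 in WT mice. Of all genes 25.8%, 11.2% and 3.22% passed there. Of 18 same-numbered pairs of arrays 3 correlated above 0.1 (range -0.46 to 0.45), against 14 of 36 differently numbered pairs from different groups (range -0.49 to 0.54). Whether the numbers pair the mice cannot be decided from these correlations, since differences between whole arrays enter them too. With 3 arrays per group, the SE of a member's diet difference within a genotype was 0.17 at the median.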
